A study of Mus musculus with 12 samples.

Results

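The genes described here encode proteins of the large (60S) subunit of the cytosolic ribosome. The count table held 46 of these genes by symbol, each as 1 transcript, among 22467 transcripts in all, and all 46 transcripts matched the mouse annotation by exact identifier. They lay on 17 chromosomes. Of the 46, 44 passed the filter on low footprint counts and entered the tests, in which 12576 transcripts took part.

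The large subunit holds the catalytic centre that joins amino acids, the tunnel through which the new chain leaves, and flexible stalks at its sides. The L1 stalk is built on RPL10A and moves with the deacylated transfer RNA at the exit site. The P stalk carries RPLP0, RPLP1 and RPLP2 and recruits the elongation factors. Most mRNAs of ribosomal proteins begin with a run of pyrimidines (the 5′TOP element), through which their translation responds to growth signals as a group.

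Ribosome-protected fragments (RPF, the footprints that translating ribosomes leave on mRNA) and total RNA were sequenced from single whole mouse embryos at E8.5, from 3 Rpl10a +/+ and 3 Rpl10a LOF/LOF embryos, so that each of the 6 embryos gave 1 library of each kind and 12 libraries came out in all. The LOF allele, as the study describes it, is a CRISPR deletion in the intron after exon 1 that leaves the rest of that intron in the mRNA and adds an in-frame stretch to the N-terminus of RPL10A. The footprint counts left out the first 15 and the last 5 codons, so the part of Rpl10a counted in RPF is common to both alleles and does not by itself check the genotype. RNA was counted over the whole annotated transcript, which takes in the site where the LOF mRNA differs. What this does to the Rpl10a RNA count and to its ratio of RPF to RNA was not tested. RPF libraries held 7041357 to 10863499 counts and RNA libraries 9132521 to 26561843.

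The start of the mRNA is the sequence by which these genes are usually grouped. For 6 members the stretch around the longest uninterrupted run of C or T is shown, with the run in capitals. The run was sought in the first 50 bases after the annotated start. The sequences and starts are those of RefSeq on GRCm38.p6, which listed 35 of the 46 members.
Rpl10a, chr17:28328576-28328597, plus strand: gctctgCCTTCTTTCCggtttc
Rplp0, chr5:115559472-115559490, plus strand: gcctggTTCTCCTataaaa
Rpl12, chr2:32961745-32961761, plus strand: gtgcaaCTTTCTTCggt
Rpl22l1, chr3:28805503-28805524, plus strand: agcccgTTCTCTTCCCacggct
Rpl35, chr2:39005115-39005137, minus strand: cctttcCTCTTTCTCTCgaacca
Rpl19, chr11:98026950-98026973, plus strand: cacaagCTCTTTCCTTTCgctgct
The longest run had a median length of 10 bases over the 35 members and of 5 bases over all 27025 genes of the same list. A run of at least 6 bases was found in 32 of the 35 members (91.4%), against 46.1% of all genes. A run of at least 5 bases that started within 5 bases of the annotated start, the place of a 5′TOP element, was found in 14 of the 35 (40.0%), against 25.3% of all genes. The letters CTCTTTCC, read on the transcribed strand, occurred in the first 50 bases of 7 of the 35 members (20.0%) and of 0.222% of all genes. In the whole window of 300 bases around the start, on either strand, the same letters occurred in 22.9% of the members and 3.57% of all genes. The shorter CTTTCC, which CTCTTTCC contains, occurred in the first 50 bases of 34.3% of the members and 2.46% of all genes. These shares describe annotated starts. Counted from the annotated start as base 1, the run shown began at base 18 in Rpl10a, 12 in Rplp0, 40 in Rpl12 and 33 in Rpl19. It began at base 2 in Rpl22l1 and 1 in Rpl35. In Rpl10a, Rplp0, Rpl12 and Rpl19 the capitals therefore do not mark the place of a 5′TOP element.

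A second sequence property decides which members can be compared with each other. Ribosomal protein genes have many processed copies, and each counted coding stretch was cut into windows of 28 bases, about the length of a footprint, and searched against all other transcripts of the table with at most 2 mismatches. In 25 members no more than 5% of the windows matched another transcript, and in 21 of these none did, Rpl10a, Rplp0 and Rpl12 among them. In 20 members more than 5% of the windows did, and in 11 of those every window. Rpl41, whose protein is among the smallest known, had 18 counted bases and no window. A stretch of Rplp1 is shown beside the matching transcript to make plain how close a copy can be, with capitals at the base that differs.
Rplp1, coding bases 46 to 73: ctgcacgAcgacgaggtgacggtcacgg
Gm10073: ctgcacgGcgacgaggtgacggtcacgg
Windows identical in every base made up 81.0% of Rplp1, 78.5% of Rplp2, 87.6% of Rpl22l1 and 90.2% of Rpl35. For 17 of the 20 members the closest partner had no footprint in any library, and the exceptions were Rplp2, Rpl21 and Rpl23a. Rpl10, which lies near the catalytic centre, and Rpl13a had every window in common with a partner and had 0 footprint counts in all 6 RPF libraries, although their RNA was counted (311 to 853 counts for Rpl10 and 1223 to 3638 for Rpl13a). These 2 were the members that did not pass the filter. Levels and RPF to RNA ratios of the members with shared sequence are therefore given as listed, with the share beside any that stood among the highest or lowest, whereas a change between genotypes compares the same windows in every embryo.

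In Rpl10a +/+ embryos the RPF levels of the 25 members with little shared sequence spanned a wide range. Levels are given as CPM (counts relative to the library total, scaled by the trimmed mean of M values, TMM) per kilobase, over the counted coding length for RPF and over the whole transcript for RNA. The median member stood at 2520 RPF CPM per kilobase, and the middle 50% lay between 1806 and 2994. Rpl38, which is needed for a normal axial skeleton in the mouse, was the highest at 4648. Rpl10a stood at 2736, inside the middle of the group. Its RNA stood at 1146 CPM per kilobase, again inside the middle 50% of the 25 members, between 563 and 1206. Rplp0 had the most RNA per length of the 25, at 1959 CPM per kilobase, and 1806 RPF CPM per kilobase. At the other end, Rpl37a, Rpl14 and Rpl24 had 38.7, 82.2 and 420 RPF CPM per kilobase with at most 0.529% of their windows shared. The windows were searched against the transcripts of the table used here alone, so copies outside it would not be seen, and the cause of these low levels was not tested.

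The ratio of footprints to RNA describes how densely an mRNA is occupied. In the +/+ embryos the log2 ratio of RPF per kilobase to RNA per kilobase, with 0.5 CPM added to each, had a median of 1.23 over the 43 members with a counted length of at least 30 bases. The median was 1.31 over the 25 members with little shared sequence and 0.76 over all 12569 transcripts. For Rpl10a it was 1.18, 1.33 and 1.25 in the 3 embryos (mean 1.26 ± 0.08, SD), which placed it at percentile 70.9 of all transcripts. Rplp0 stood lower, at −0.18, −0.005 and −0.16 (mean −0.12 ± 0.10), percentile 21.1. Rpl12, whose protein forms the base of the P stalk, had 0.25 ± 0.05 (percentile 31.4). Both the distances and the order of these 3 depended on length. Without length scaling the log2 ratio was 0.95 for Rpl10a (percentile 94.2), −0.72 for Rplp0 (percentile 35.9) and −1.25 for Rpl12 (percentile 21.9), so Rpl12 then lay below Rplp0.

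Over all 43 members as listed, shared sequence included, the 3 highest ratios belonged to Rpl18, Rpl21 and Rpl22. Rpl18 had 3.15, 3.25 and 3.10 (mean 3.17 ± 0.08, percentile 99.1). Rpl21 had 2.76, 2.73 and 2.93 (2.81 ± 0.11, percentile 98.3), and Rpl22 had 2.71, 2.67 and 2.71 (2.70 ± 0.03, percentile 97.9). All 3 have long annotated untranslated parts, of 2375 nt before the coding sequence in Rpl18 and of 1079 and 1647 nt behind it in Rpl21 and Rpl22. Without any scaling by length they stood at 0.61, 0.67 and 0.05, percentiles 84.9, 87.0 and 63.9, so their rank rested on the length of the transcript model. Every window of Rpl21 is also shared. The 3 lowest were Rpl26 at the tunnel opening with −3.10, −3.40 and −3.51 (mean −3.33 ± 0.21), Rpl37a with −2.89, −2.64 and −3.10 (−2.88 ± 0.23) and Rpl37 with −1.28, −1.64 and −1.29 (−1.40 ± 0.20), and without length scaling they stood at percentiles 0.70, 0.33 and 1.82. All windows of Rpl26 and Rpl37 are shared, but none of Rpl37a. Without length scaling the median over the members was 0.52 and over all transcripts −0.31.

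**Figure D1:**
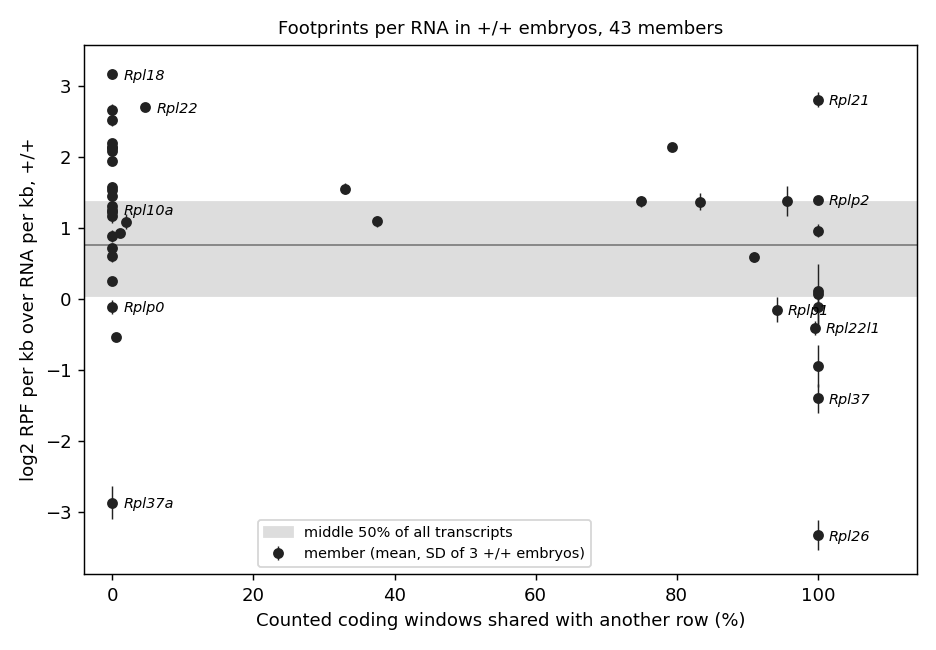
Footprints per RNA in Rpl10a +/+ embryos: each point is 1 of 43 members, with the mean and SD over 3 embryos of log2 RPF per kilobase over RNA per kilobase, against the percentage of its counted coding windows that match another transcript. The grey band is the middle 50% of all 12569 transcripts. Rpl10a lies inside the band, Rpl37a stands at −2.88 with no shared window, and Rpl26 and Rpl37 are low with every window shared.

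The question put by the comparison of genotypes was what the altered RPL10A does to translation in the embryo, and Rpl10a itself came first. Its RPF level was 1562, 1611 and 1679 CPM in the +/+ embryos and 1125, 1039.6 and 939.7 CPM in the LOF/LOF embryos. Every LOF/LOF value lay below every +/+ value. The means were 1617 ± 58.7 and 1035 ± 92.7 CPM (SD, n = 3 each). The fitted log2 fold change of RPF was −0.64 (SE 0.07), which is 64.0% of the +/+ level, with an adjusted p of 0.00689 in edgeR (quasi-likelihood test, Benjamini-Hochberg over the 12576 transcripts). It ranked 5 by p among all transcripts and 1 among the members. The two-sided exact permutation test gave p = 0.1, the smallest that 3 against 3 embryos allow. Without +/+ embryo 2 the adjusted p was 0.102, just past the threshold of 0.1, with a log2 fold change of −0.65.

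Rpl10a RNA, counted over the whole transcript and so across the altered site, was lower as well, though less so. It was 849, 789 and 869.7 CPM in the +/+ embryos and 695, 695 and 753 CPM in the LOF/LOF embryos, again without overlap. The log2 fold change of RNA was −0.23 (SE 0.06, 85.5% of the +/+ level, edgeR adjusted p = 0.0678). This call did not hold when +/+ embryo 1 or 3 or LOF/LOF embryo 1 or 2 was left out, where the adjusted p was 0.151 to 0.275, or with the Y-linked covariate described below (0.319). The log2 ratio of RPF to RNA, unscaled by length, was 0.88, 1.03 and 0.95 in the +/+ embryos and 0.69, 0.58 and 0.32 in the LOF/LOF embryos. The groups did not overlap and the ratio was 74.9% of the +/+ level (log2 −0.42, SE 0.09). The test of this ratio, an interaction of genotype and library kind in 1 model of the 12 libraries, gave an unadjusted p of 0.00051 and an adjusted p of 0.974, so it did not pass. That model did not pair the RPF and RNA libraries of an embryo. With them paired, edgeR gave an unadjusted p of 0.00021 and an adjusted p of 0.287, which did not pass either.

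Rpl10a was the only one of the 44 members called in RPF by edgeR, where a call means an adjusted p below 0.1. That is 2.27% of the members, against 2.19% of all transcripts (1.15% called lower, 1.05% called higher), a share close to the background. In RNA edgeR called 2 members, Rpl10a and Rpl22l1, both lower, which is 4.55% of the members against 5.02% of all transcripts (3.25% lower, 1.77% higher). In the ratio of RPF to RNA no member was called and no transcript was (0.0%) by edgeR. At an unadjusted p below 0.05 there were 3 members in the ratio, Rplp0, Rpl10a and Rplp1, all lower, which is 6.82% of the members against 4.44% of all transcripts. DESeq2 called 2 of them, Rpl10a and Rplp0, both with an adjusted p of 0.0894, and limma-voom called none. By DESeq2 4 transcripts in all were called in the ratio (0.0318%).

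**Figure D2:**
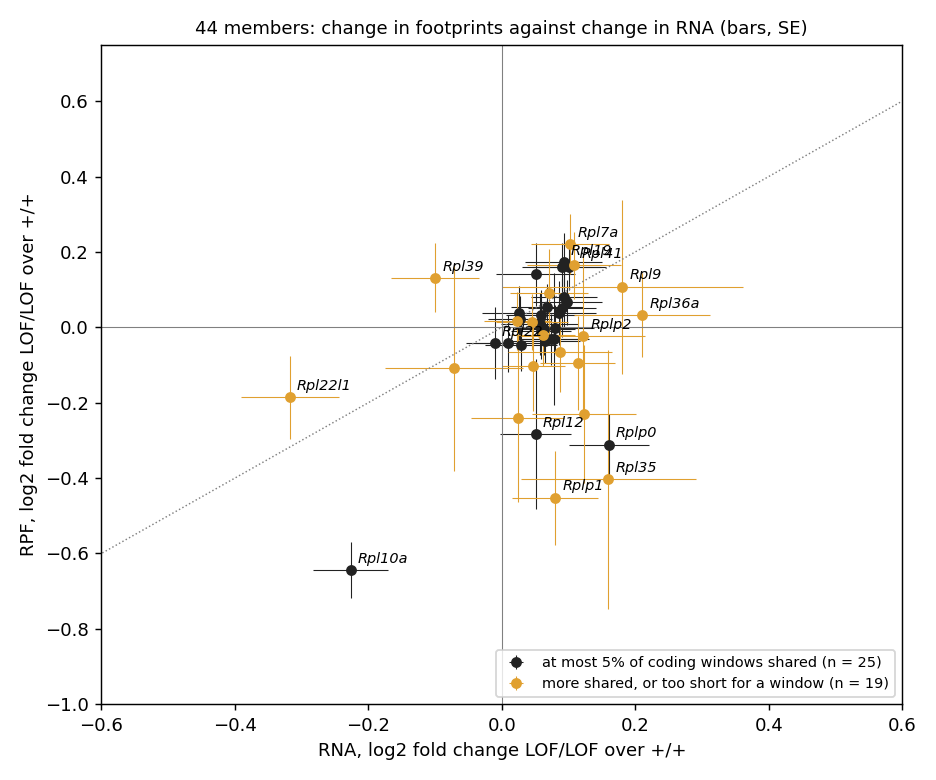
Change in RPF (vertical) against change in RNA (horizontal) for the 44 members tested, both as log2 fold change of Rpl10a LOF/LOF over +/+ embryos with SE bars. The dotted line marks equal change. Most members crowd near 0 on the vertical axis and slightly right of 0 on the horizontal axis, while Rpl10a stands alone at −0.23 and −0.64, and Rplp0, Rplp1, Rpl35 and Rpl12 lie below the others.

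After Rpl10a, the lowest RPF changes were those of Rplp1, Rpl35, Rplp0 and Rpl12, all but Rpl35 of the P stalk. Rplp0, the stalk's anchor, had 1559, 1632 and 1655 RPF CPM in the +/+ embryos and 1306, 1451 and 1148 in the LOF/LOF embryos. The groups did not overlap. Its log2 fold change of RPF was −0.31 (SE 0.08, 80.6% of the +/+ level, unadjusted p = 0.00295), but the edgeR adjusted p was 0.113, short of the threshold. It was called in RPF by DESeq2 (adjusted p = 0.0319), limma-voom (0.083), limma-voom with sva (2.88e-04), without the filter (0.0283) and without LOF/LOF embryo 2 (0.00693). Rplp0 RNA ran the other way, with 2682, 2488 and 2812 CPM in the +/+ embryos and 2956, 2849.6 and 3116 in the LOF/LOF embryos (log2 0.16, SE 0.06, adjusted p = 0.204, and 0.0834 by DESeq2). All 3 LOF/LOF values were above the +/+ values. Its log2 ratio of RPF to RNA was −0.78, −0.61 and −0.76 in the +/+ embryos against −1.18, −0.97 and −1.44, without overlap, which comes to 72.1% of the +/+ ratio (log2 −0.47, SE 0.10, unadjusted p = 0.00044, adjusted p = 0.974). In that test Rplp0 ranked 4 by p among all transcripts and Rpl10a 5. With the libraries of an embryo paired, edgeR gave Rplp0 an unadjusted p of 0.00014 and an adjusted p of 0.287.

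Rplp1, which pairs with RPLP2 at the tip of the stalk, shared 94.2% of its windows with a copy, and where on it the counted footprints fell is not known. Its RPF level was 31.4, 24.9 and 33.9 CPM in the +/+ embryos and 22.6, 22.9 and 20.7 in the LOF/LOF embryos, again without overlap. The log2 fold change was −0.45 (SE 0.12, 73.1%, edgeR adjusted p = 0.131), and it was called with sva (0.0481), without the filter (0.0614) and without LOF/LOF embryo 2 (0.0533). It was not called by DESeq2 (0.129), by limma-voom (0.133) or with the Y-linked covariate (0.648). The RNA of Rplp1 was 63.8, 54.5 and 58.2 CPM against 60.7, 61.8 and 63.0, with overlapping groups (log2 0.08, SE 0.06). Its log2 ratio of RPF to RNA was −1.01, −1.11 and −0.77 in the +/+ embryos and −1.41, −1.41 and −1.58 in the LOF/LOF embryos. The groups did not overlap, and the ratio was 69.1% of the +/+ value (log2 −0.53, SE 0.14, unadjusted p = 0.00165). Rplp2, its partner, had 15.0, 15.4 and 18.1 RPF CPM against 23.5, 12.9 and 12.4, and the value of LOF/LOF embryo 1 lay above all others (log2 −0.02, SE 0.22). Its RNA was 19.6, 19.5 and 23.1 CPM against 22.3, 24.1 and 21.3 (log2 0.12, SE 0.09). All windows of Rplp2 are shared with Wdr89, which had up to 231 RPF and 813 RNA counts in a library. Rplp2 itself had 111 to 174 RPF and 174 to 507 RNA counts. Whether the 2 partners differ was not tested.

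Rpl12 split the LOF/LOF embryos. Its RPF level was 476, 442 and 456 CPM in the +/+ embryos and 283, 549 and 296 CPM in the LOF/LOF embryos. Embryos 1 and 3 stood well below every +/+ embryo and embryo 2 stood above them all. The log2 fold change was −0.28 (SE 0.20, edgeR adjusted p = 0.58), and without LOF/LOF embryo 2 it was −0.66 with an adjusted p of 1.81e-04. Without LOF/LOF embryo 1 or 3 it was −0.12 or −0.14, with adjusted p-values of 0.839 and 0.873. Rpl12 RNA did not split: it was 1102, 1037 and 1128 CPM in the +/+ and 1118, 1089.6 and 1176 CPM in the LOF/LOF embryos. The log2 ratio of RPF to RNA was −1.98, −0.99 and −1.99 in the LOF/LOF embryos, against −1.21, −1.23 and −1.30 in the +/+ embryos.

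LOF/LOF embryo 2 also differed from LOF/LOF embryos 1 and 3 in other ways. The summed RNA level of 4 Y-linked genes was 177 to 189 CPM in the +/+ embryos and 173 CPM in LOF/LOF embryo 2, but 8.72 and 2.57 CPM in LOF/LOF embryos 1 and 3. With the Y-linked level as a covariate the log2 fold change of Rpl12 in RPF turned to 0.18 (adjusted p = 0.822) and that of Rplp0 became −0.14 (adjusted p = 0.753). The ratio change of Rplp0 became −0.23 and that of Rpl10a −0.30, with unadjusted p-values of 0.0553 and 0.0391 in edgeR. The RPF change of Rpl10a stayed called at −0.58 (adjusted p = 0.0814). No +/+ embryo had a low Y-linked level, so genotype and Y-linked level are partly confounded in every comparison of genotypes here. With 1 LOF/LOF embryo at the +/+ level, the Y-linked level and whatever else marks that embryo cannot be told apart. Embryo 2 also had the highest level of visceral and yolk sac endoderm markers among the LOF/LOF embryos, 2250 RNA CPM against 1133 and 898. All 10 of these markers were called lower in LOF/LOF RNA, against 3.25% of all transcripts. Their summed levels were 3197 to 4017 CPM in +/+ and 898 to 2250 CPM in LOF/LOF embryos, and none was at 0. The 8 primitive erythroid markers summed to 405 to 1703 RNA CPM in +/+ and 1523 to 2552 in LOF/LOF embryos, with overlap. In RPF they summed to 839 to 2822 and 3517 to 5793 CPM, without overlap. Of the 8, 3 were called higher in RPF (1.05% of all transcripts) and 1 in RNA (1.77%). The 10 markers of the embryo proper summed to 394 to 405 and 378 to 418 RNA CPM. The 7 trophoblast and decidua markers in the table summed to 47.5 to 92.2 and 32.6 to 66.4. The part of these differences in the results was not tested, and in whole embryos fewer cells of a type and less RNA per cell cannot be told apart.

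**Figure D3:**
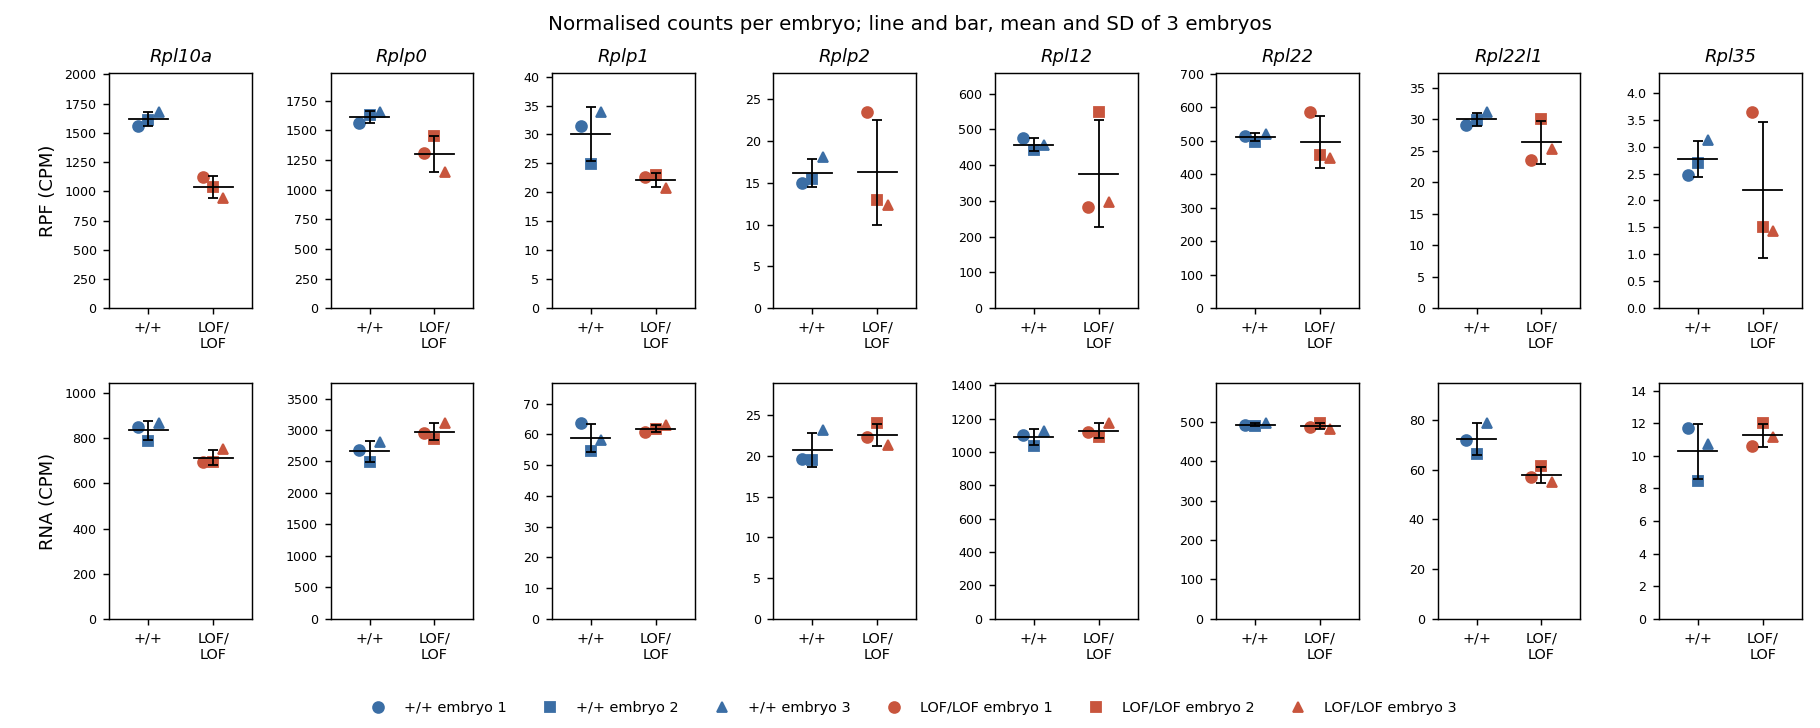
Normalised RPF (upper row) and RNA (lower row) levels in CPM of 8 members in each embryo, with Rpl10a +/+ in blue and LOF/LOF in red. The symbol gives the embryo and is the same for its 2 libraries, and the line and bar give the mean and SD of 3 embryos. Rpl10a RPF values separate completely, 1562 to 1679 against 939.7 to 1125 CPM, and for Rpl12 LOF/LOF embryo 2 (square) lies at 549 CPM while embryos 1 and 3 lie at 283 and 296.

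Among the other groups, the 5S particle, which RPL5 and RPL11 form with the 5S rRNA and which binds the p53 regulator MDM2, differed little between genotypes in RPF. Rpl5 had a log2 fold change of RPF of −0.003 (SE 0.07) and Rpl11 one of 0.02 (SE 0.06). Rpl5 RNA was 1539, 1483 and 1528 CPM in the +/+ and 1599, 1568 and 1588 in the LOF/LOF embryos, without overlap (log2 0.06, SE 0.05, edgeR adjusted p = 0.536). Rpl3 and Rpl8, near the catalytic centre, had −0.05 (SE 0.07) and −0.002 (SE 0.06). Rpl36a, at the exit site like RPL10A, had 31.2, 25.9 and 26.8 RPF CPM in the +/+ and 31.6, 26.5 and 28.1 in the LOF/LOF embryos (log2 0.03, SE 0.11). Its RNA was among the 3 highest changes, with 27.7, 24.9 and 27.0 CPM against 27.1, 30.0 and 35.5 (log2 0.21, SE 0.10, edgeR adjusted p = 0.334), and 0.11 without LOF/LOF embryo 3. All its windows are shared. The 4 subunit bridge members, Rpl23, Rpl24, Rpl30 and Rpl41, lay between −0.10 and 0.16 in RPF.

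The 8 members of the exit tunnel and its opening held both the lowest (Rpl35) and the highest (Rpl39) change in the ratio. Rpl19 had 1541, 1631 and 1598 RPF CPM in the +/+ embryos and 2012, 1693 and 1669.6 in the LOF/LOF embryos, without overlap (log2 0.17, SE 0.08, edgeR adjusted p = 0.356). LOF/LOF embryo 1 was by far the highest, and without it the change was 0.08. Rpl35 had 2.47, 2.69 and 3.13 RPF CPM against 3.64, 1.51 and 1.43, from 13 to 30 footprints a library. Its log2 fold change of −0.40 carried an SE of 0.34, and its ratio, the lowest of all members at −0.57, an SE of 0.36. Without LOF/LOF embryo 1, 2 or 3 the RPF change was −0.91, −0.23 or −0.15 and the ratio change −1.11, −0.33 or −0.32. Rpl39, a short tunnel protein, had 145, 157 and 135 RPF CPM against 179, 143 and 157, and 378, 328 and 372 RNA CPM against 343, 349 and 313. Its RNA change was among the 3 lowest (−0.10, SE 0.07) and its ratio change the highest (0.23, SE 0.12), and the groups overlapped in both libraries. Of the Rpl39 windows, 95.7% are shared. The RNA change ran from −0.16 without +/+ embryo 2 to −0.05 without LOF/LOF embryo 3, and the ratio change from 0.15 without +/+ embryo 3 to 0.34 without +/+ embryo 2. Rpl26 had 9.05, 6.55 and 7.19 RPF CPM against 9.04, 5.59 and 5.23 (log2 −0.24, SE 0.22). The remaining tunnel members Rpl4, Rpl17, Rpl23a and Rpl31 had RPF changes of 0.07, −0.02, 0.01 and 0.09, with SEs from 0.06 to 0.12.

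Rpl7a and Rpl41 completed the upper end in RPF beside Rpl19. Rpl7a had 739.7, 802 and 768 RPF CPM in the +/+ and 1009.6, 828 and 857 in the LOF/LOF embryos, without overlap (log2 0.22, SE 0.08, edgeR adjusted p = 0.247), and its ratio change was 0.12 (SE 0.10). LOF/LOF embryo 1 was again the highest, and without it the RPF change was 0.13. Without LOF/LOF embryo 2 Rpl7a was called (0.28, adjusted p = 0.0521). Of its windows, 83.3% are shared. Rpl41 had 87.8, 105.6 and 83.6 against 101.9, 104.0 and 104.1 RPF CPM (log2 0.16, SE 0.09), and its change was 0.27 without +/+ embryo 2 and 0.10 without +/+ embryo 3. The other members outside these role groups were Rpl6, Rpl7, Rpl9, Rpl13, Rpl14, Rpl15, Rpl18, Rpl21, Rpl27, Rpl27a, Rpl28, Rpl29, Rpl32, Rpl34, Rpl35a, Rpl36, Rpl37, Rpl37a and Rpl38. Rpl36 had 381, 393 and 386 RPF CPM in the +/+ and 418, 458 and 421 in the LOF/LOF embryos, without overlap. Rpl38 had 713, 727 and 693 against 849, 764 and 773, again without overlap. The group, Rpl7a aside, spanned −0.23 for Rpl29 to 0.16 for Rpl36 and Rpl38 in RPF, and 19 of the 20 tested in that group, Rpl7a included, were above 0 in RNA. Rpl9 was among the 3 highest changes in RNA (0.18, SE 0.18) with 5.53, 4.14 and 5.06 RNA CPM in the +/+ and 5.74, 6.19 and 3.97 in the LOF/LOF embryos. Leaving out single embryos moved this change from 0.06 (without +/+ embryo 2 or LOF/LOF embryo 2) to 0.31 (without LOF/LOF embryo 3). All windows of Rpl9 are shared. Rpl18, Rpl21, Rpl37 and Rpl37a, named above for their ratios, had RPF changes of 0.05, −0.07, −0.11 and −0.03, each smaller than its SE (0.06, 0.11, 0.27 and 0.18).

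Over all 44 members, 3 had every LOF/LOF embryo below every +/+ embryo in RPF, Rpl10a, Rplp0 and Rplp1, which is 6.82% of members against 9.45% of all transcripts. The opposite held for 4, Rpl7a, Rpl19, Rpl36 and Rpl38 (9.09% against 9.92%). In RNA, 2 members had all LOF/LOF embryos below (4.55% against 12.6%) and 5 had all above, Rplp0, Rpl4, Rpl5, Rpl6 and Rpl23 (11.4% against 10.2%). In the ratio, Rpl10a, Rplp0 and Rplp1 had all below (6.82% against 5.23%) and no member had all above (background 6.81%). None of these shares stood far above its background.

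Of the paralog pair, Rpl22l1 was called in RNA and Rpl22 was not. RPL22 binds RNA on the outer face of the ribosome and is known to hold down the mRNA of its paralog Rpl22l1. Rpl22l1 had 71.8, 66.1 and 78.8 RNA CPM in the +/+ embryos and 57.0, 61.4 and 54.9 in the LOF/LOF embryos. The groups did not overlap (log2 −0.32, SE 0.07, 80.2% of the +/+ level, edgeR adjusted p = 0.053). The call was lost when +/+ embryo 1 or 3 or LOF/LOF embryo 1 or 3 was left out (adjusted p 0.119 to 0.16) with the Y-linked covariate (0.592), with sva (0.107) and with the replicate block (0.109). In RPF Rpl22l1 had 29.1, 29.8 and 31.2 CPM against 23.6, 30.1 and 25.3, with LOF/LOF embryo 2 inside the +/+ range (log2 −0.19, SE 0.11, adjusted p = 0.495). Its ratio change was 0.13 (SE 0.13), and 0.07 without LOF/LOF embryo 2. Rpl22 RNA was nearly the same in all embryos, at 492, 491 and 497 CPM against 488, 498 and 483 (log2 −0.01, SE 0.04). Rpl22 RPF was 514, 497 and 520.3 CPM against 585, 456 and 447 (log2 −0.04, SE 0.10).

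**Figure D4:**
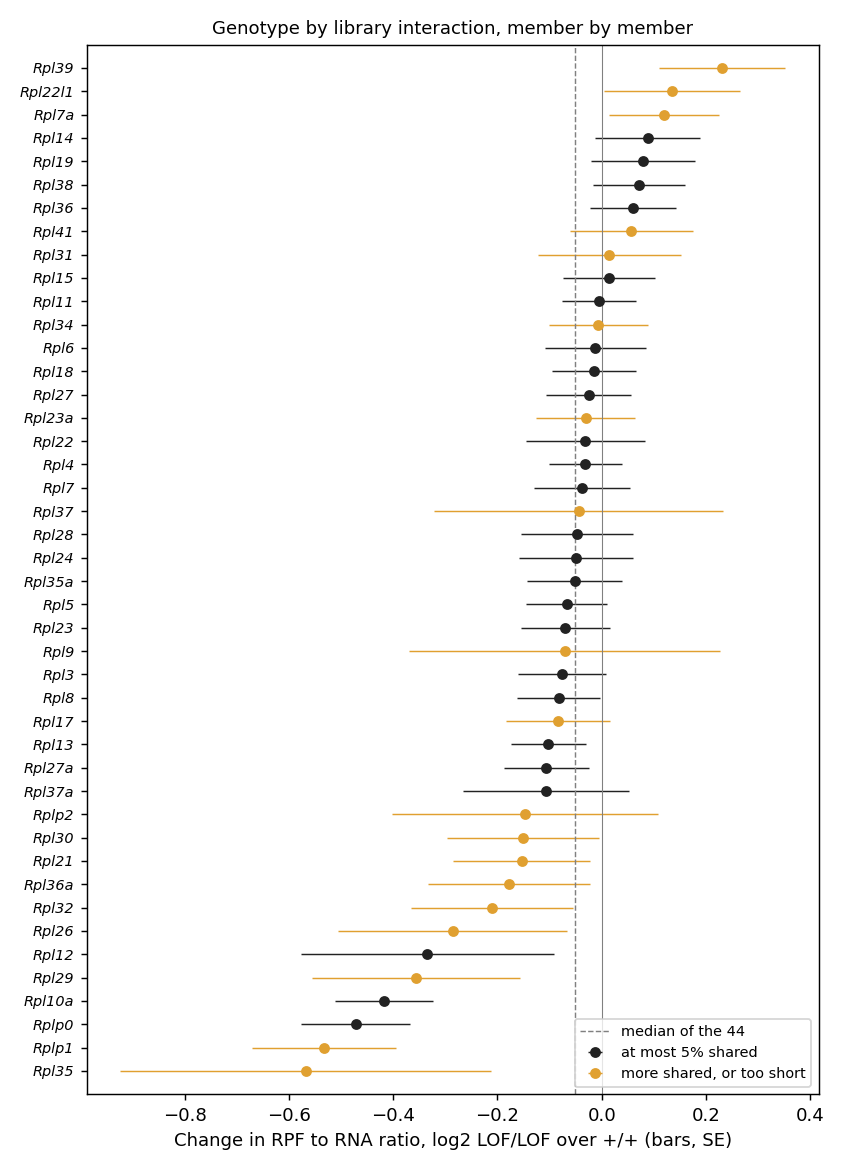
Change in the ratio of RPF to RNA (log2, Rpl10a LOF/LOF over +/+ embryos) of the 44 members, ordered by size, with SE bars, in black for members with at most 5% shared windows and in orange for the others. The dashed line is their median at −0.05. Among the black points Rplp0, Rpl10a and Rpl12 lie below −0.3 and the other 22 lie between −0.11 and 0.09.

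As a group the members moved little. The median log2 fold change of RPF was −0.003 over the 44 members and 0.004 over all transcripts, with 23 members below 0. In RNA it was 0.07 against −0.002, with 39 of 44 members above 0 (88.6%, against 49.4% of all transcripts). In the ratio it was −0.05 against 0.007, with 34 of 44 below 0 (77.3%, against 48.0%). The splits in RPF and in the ratio rested on single embryos, while in RNA 35 to 40 members stayed above 0 whichever embryo was left out. In RPF the number below 0 was 33 without LOF/LOF embryo 1, 16 without embryo 2 and 12 without embryo 3. In the ratio it was 19 without LOF/LOF embryo 3 and 23 with the Y-linked covariate, where the median was −0.02. The 25 members with little shared sequence gave 0.009, 0.06 and −0.05. Rpl10a, at −0.64 in RPF, thus lay 0.33 below the next of these 25, Rplp0 at −0.31. Over all 44 members the next was closer, Rplp1 at −0.45, with 94.2% of its windows shared.

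These medians hid larger movements of single embryos, in which the members went together. Relative to the +/+ mean, the median member in RPF stood at −0.04, −0.002 and 0.02 in the 3 +/+ embryos but at 0.16, −0.03 and −0.10 in the LOF/LOF embryos. All transcripts had medians between −0.002 and 0.005. The SD over embryos of a member's log2 RPF level had a median of 0.05 within the +/+ group and of 0.15 within the LOF/LOF group, where it was 0.10 and 0.16 over all transcripts. In RNA the medians were 0.01, −0.07 and 0.06 in the +/+ embryos and 0.03, 0.05 and 0.10 in the LOF/LOF embryos. For the ratio the LOF/LOF embryos gave 0.11, −0.08 and −0.17, and leaving out LOF/LOF embryo 3 turned the median change in the ratio to 0.01. The genotypes overlapped in all 3 measures.

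**Figure D5:**
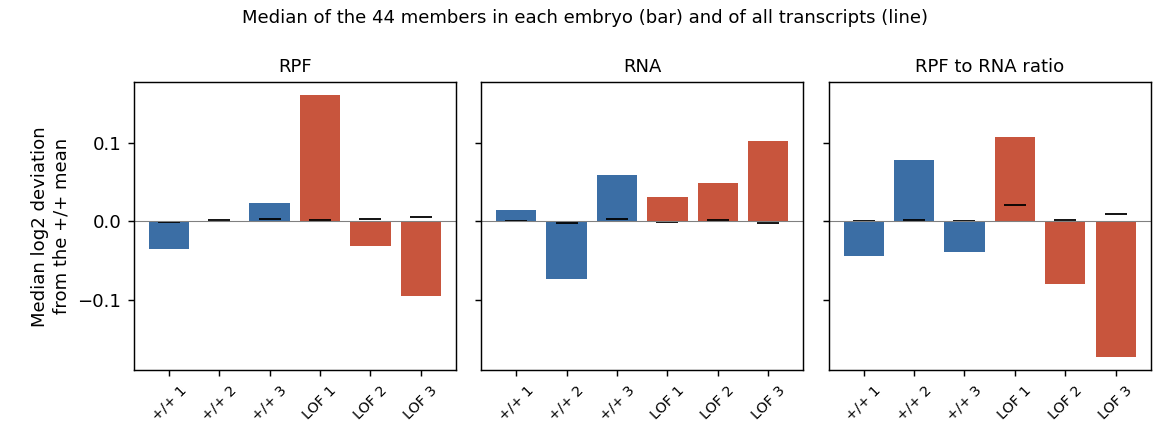
Median over the 44 members of the log2 deviation from the Rpl10a +/+ mean in each embryo (bars), in RPF, RNA and their ratio, with the median of all transcripts as a black line. In RPF LOF/LOF embryo 1 stands at 0.16 and embryo 3 at −0.10, on opposite sides of the +/+ embryos, while all transcripts stay near 0.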

How the data were processed

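RPF and total RNA libraries came from the same 3 Rpl10a +/+ and 3 Rpl10a LOF/LOF embryos, and samples were grouped by the genotype and library given in the labels. The deposited values are raw counts per transcript, whole numbers without normalization. The authors trimmed and filtered the reads with UMI-tools, FASTX-Toolkit and cutadapt, discarded reads on structural RNAs (found with Bowtie2), mapped what remained to canonical GENCODE transcripts (GRCm38/mm10) and removed PCR duplicates with UMI-tools. RPF reads were counted by their A site in the coding sequence without its first 15 and last 5 codons, and RNA reads over the entire transcript. How reads with several matches were assigned is not given in the sources used here, so members with shared sequence are marked as such.

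Rows were named with GENCODE vM21, with 21976 identifiers matched by exact version, 477 by another version and 14 unmatched. Transcripts were kept where 3 or more RPF libraries exceeded 0.75 CPM, TMM factors were computed separately for RPF and RNA, and genotypes were compared by edgeR's quasi-likelihood test (edgeR 4.0.16, R 4.3.3) with Benjamini-Hochberg adjustment over all transcripts kept and a threshold of 0.1. The filter, scaling and threshold follow the study's methods, which name voom, limma, sva and locfdr without a design. The ratio of RPF to RNA was tested as an interaction over the 12 libraries, without a term for the embryo. The scripts were tested on simulated data. Levels used 0.5 CPM as pseudocount in log2 ratios. Windows of 28 bases were searched with bwa 0.7.19, and promoter sequences are from RefSeq (GRCm38.p6). Alternatives used DESeq2 1.42.0, limma 3.58.1 and sva 3.50.0 with 2 surrogate variables, a number limited so that residual degrees of freedom remained, and medians over members with at most 5% shared windows were chosen after seeing the data.

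Values are given in every embryo for Rpl10a, the P stalk members, Rpl22, Rpl22l1, members called by edgeR, and the 3 highest and 3 lowest members in each measure. The others are given by group. Members, lists and tests were chosen with earlier results of these data known. RPF and RNA libraries of 1 embryo deviated together (r = 0.191 to 0.403 across transcripts), as the labels' shared embryo implies, and same-numbered embryos of the 2 genotypes did not (r = −0.10 to 0.082), being different animals. The labels do not give the litter of an embryo, and p-values measure the spread between these embryos.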

Additional observations from a re-analysis of the deposited data

How the results depend on the processing

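The number of members called in RPF was 1 and became 2 with DESeq2 and 2 with limma-voom (Rpl10a and Rplp0; 2.12% and 2.62% of all transcripts), 8 with limma-voom and sva (4 lower and 4 higher, 18.2% of members against 10.4% of all transcripts) and 3 without the filter (2.58% of all). Leaving out single embryos gave 0 to 5, with 0 without +/+ embryo 2 and 5 without LOF/LOF embryo 2 (11.4% of members), where 0.0318% and 11.5% of all transcripts were called. In RNA the number was 2 and became 3 with DESeq2 (Rplp0 added, higher, with 4.92% of all transcripts called), 1 with limma-voom and sva (4.69%) and 0 with the Y-linked covariate (0.278%). Without single embryos the number was 0 to 2, where 1.10% (without +/+ embryo 1) to 4.72% (without LOF/LOF embryo 2) of all transcripts were called. In the ratio it was 0 and became 2 with DESeq2 (0.0318%) and 0 to 2 without single embryos, with 2 (Rpl12 and Rplp0) without LOF/LOF embryo 2 (0.207%). As a replicate block, the embryo number left 1 call in RPF (2.49% of all transcripts), 1 in RNA (Rpl10a, 4.20%) and 0 in the ratio (0%), where the block pairs the libraries of an embryo. The median ratio of RPF to RNA in +/+ embryos was 1.23 and became 1.01 with the whole coding length, 0.52 without length scaling and 0.52 with the coding length for both libraries. The sign turned with the Y-linked covariate for Rpl12 in RPF (0.18) and in the ratio (0.18), and the ratio change of Rpl7a ran from −0.0021 without LOF/LOF embryo 1 to 0.20 without LOF/LOF embryo 3. The causes were not tested. Under the alternatives run, Rpl10a in RPF stayed between −0.71 and −0.58 and lost its call without +/+ embryo 2 alone. Depth limits members with few counts, with RPF standard errors of 0.34 for Rpl35 and 0.27 for Rpl37 against 0.07 for Rpl10a.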

Other observations

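Of the 34 small subunit proteins counted, 32 were tested, with a median log2 fold change of −0.01 in RPF, 0.07 in RNA and −0.08 in the ratio, and 1 was called higher in RPF and 1 in RNA. The 14 other mRNAs with a 5′TOP element, among them the elongation factors Eef1a1 and Eef2, had medians of 0.04, 0.11 and −0.05, with 13 of 14 above 0 in RNA and 1 called. The 32 large-subunit assembly factors, such as the nucleolar proteins Pes1 and Brix1, had medians of 0.13 in RPF and 0.09 in RNA. Of these, 29 were above 0 in RPF with none called by edgeR (10, or 31.2%, at an unadjusted p below 0.05, against 13.7% of all transcripts), and 31 in RNA with 4 called higher. Over all transcripts 1.77% were called higher in RNA and 1.05% in RPF. The 48 mitochondrial large-subunit proteins had medians of 0.06 and 0.02. All lists share the same embryos with the members above, and whether they differ from them was not tested.

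Paralogs of large-subunit genes were counted too. Rpl7l1 had 154 RPF CPM in +/+ and 173 in LOF/LOF embryos (log2 0.16, SE 0.10), with an edgeR adjusted p of 0.49. Rpl36al had 0.951 and 0.865 RPF CPM beside 51.1 and 54.2 RNA CPM. The testis and muscle paralogs Rpl10l, Rpl39l and Rpl3l had at most 3 footprints in any library and were not tested.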
